A study of Paracentrotus lividus with 54 samples.

Results

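Broad open domains of the sea urchin Paracentrotus lividus were taken as ATAC-seq peaks at least 2000 bp wide in the blastula, gastrula or prism list, merged over the 3 lists where they overlapped. This gave 2358 domains from 4713 broad peaks, which were 1.15% of the 408668 peaks in these lists. The members were chosen by their peak width, so widths and membership of the lists are given as description, with no test. The study used wild-type embryos that developed normally, and whole embryos were assayed. ATAC-seq samples numbered 6 for early blastula, 7 for late blastula, 7 for gastrula and 4 for prism, from trials with different numbers of nuclei. The authors' list for each stage pools its samples. The list labelled late blastula was identical to that of early blastula, so the list is called blastula here. Whether it pools the early blastula samples, the late ones or both is not settled. RNA-seq comprised 17 libraries from the egg at 0 hours to the pluteus larva at 48 hours and 5 libraries from wild-type adults. The adult organs were tubefeet, gut, ovaries, bodywall and the jaw apparatus known as Aristotle's lantern, and each stage or tissue had 1 library.

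ATAC-seq uses a transposase that inserts adapters where DNA is not wrapped tightly in chromatin, so its peaks mark open promoters, enhancers and other regulatory DNA. A peak caller joins neighbouring open bases into a single interval, and a wide peak can therefore hold several open elements or an open stretch of a gene. In sea urchin development, cleavage relies largely on RNA laid down in the egg, zygotic transcription builds up towards the blastula, the mesenchyme blastula releases the cells that make the skeleton, and gastrulation forms the gut. The prism and pluteus stages are larval stages with a growing skeleton.

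Domains were 2493.5 bp wide at the median, with quartiles at 2205.5 and 3049 bp. In all, 620 were at least 3000 bp, 105 at least 5000 bp and 4 at least 10000 bp wide, and together they covered 6.68 Mb. The blastula list gave 1682 broad peaks of 142485, the gastrula list 1735 of 154157 and the prism list 1296 of 112026. Nothing in the widths marks off peaks of 2000 bp from narrower ones. Peaks from 2000 to under 2100 bp numbered 241, 241 and 184 in these lists, and those just outside, from 1900 to under 2000 bp, numbered 289, 319 and 218.

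The most common class, 861 domains or 36.5%, was broad in all 3 lists. A further 561 domains, 23.8%, were broad in the blastula list alone, and 280 and 65 in the gastrula and prism lists alone. The gastrula and prism lists shared 336 without the blastula list. The blastula and gastrula lists shared 244, and the blastula and prism lists 11. In the following, the 681 domains broad in the gastrula or prism list but not in blastula are called late-broad, and the 561 of the blastula list alone early-broad. Wider domains were more often broad in all 3 lists. Width and membership both come from the rule, and merging over lists can widen a domain, so this rise is partly built in. The share was 22.3% of the 1192 domains under 2.5 kb, 37.7% of the 546 between 2.5 and 3 kb, 58.8% of the 515 between 3 and 5 kb and 81.9% of the 105 of 5 kb or wider.

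**Figure D1:**
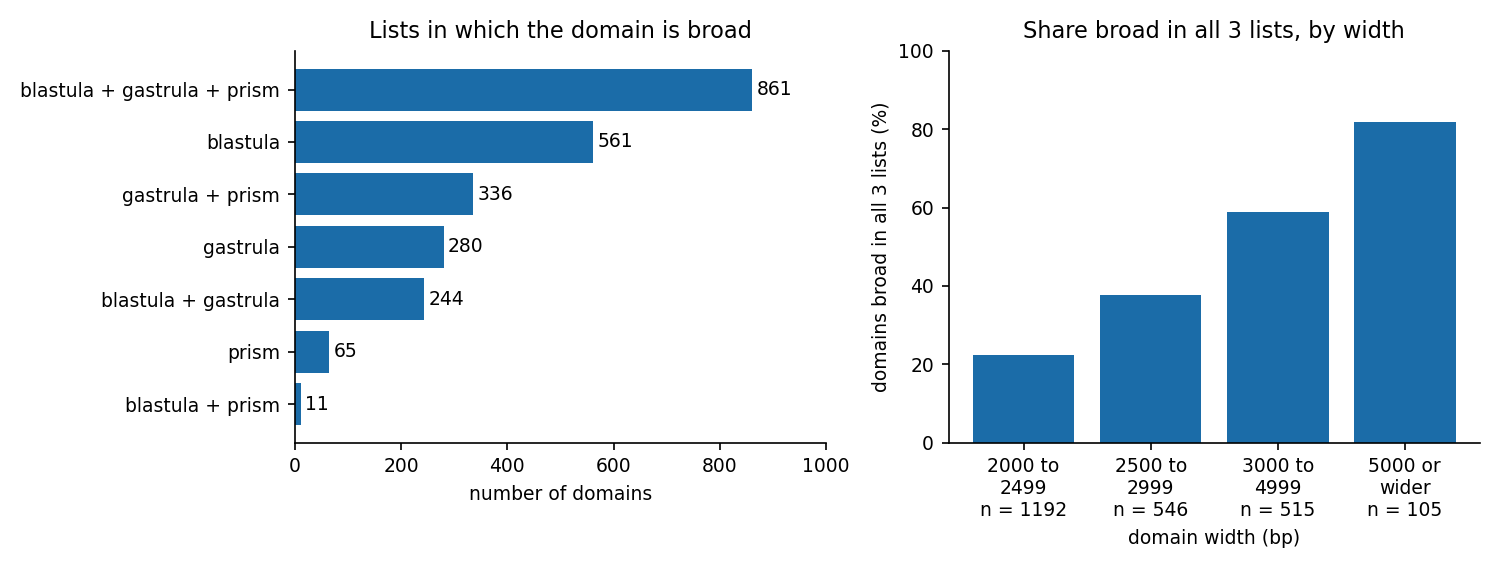
Left, bars give the number of domains by the lists in which they are broad, from 861 in all 3 to 11 in blastula and prism. Right, bars give the share of domains broad in all 3 lists (%) by domain width in bp, which goes from 22.3% in the narrowest class to 81.9% in the widest.

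A domain broad in a single list was seldom closed in the others. Of the 561 early-broad domains, 24 had no peak at all in the gastrula list, 126 held a single narrower peak and 411 held several narrower ones, which covered 81.7% of the domain at the median. In the prism list 41 of them had no peak, and the median coverage was 68.9%. Of the 681 late-broad domains, 31 had no peak in the blastula list, 232 held 1 narrower peak and 418 several, with a median coverage of 69.8%. The most common pattern was a wide interval in one list against a row of shorter intervals in the other.

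The lists of the 16-cell stage and of the pluteus larva did not enter the rule. By the labels each stage has 2 ATAC-seq samples, and the lists hold fewer peaks, 30683 and 44711. In the 16-cell list, peaks covered 85.3% of a domain broad in all 3 lists at the median, 56.4% of an early-broad domain and 12.3% of a late-broad domain. No 16-cell peak lay in 304 of the 681 late-broad domains (44.6%), against 64 of the 561 early-broad domains (11.4%) and 20 of the 861 broad in all 3 (2.32%). The pluteus list ran the other way. Its peaks covered 79.5% of a domain broad in all 3 lists at the median, 66.8% of a late-broad and 24.5% of an early-broad domain. There, 184 early-broad domains (32.8%) had no peak, against 46 late-broad domains (6.75%). These lists come from other samples than the 3 of the rule, and a list pools the samples of a stage, so there is no spread between samples to set these differences against.

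**Figure D2:**
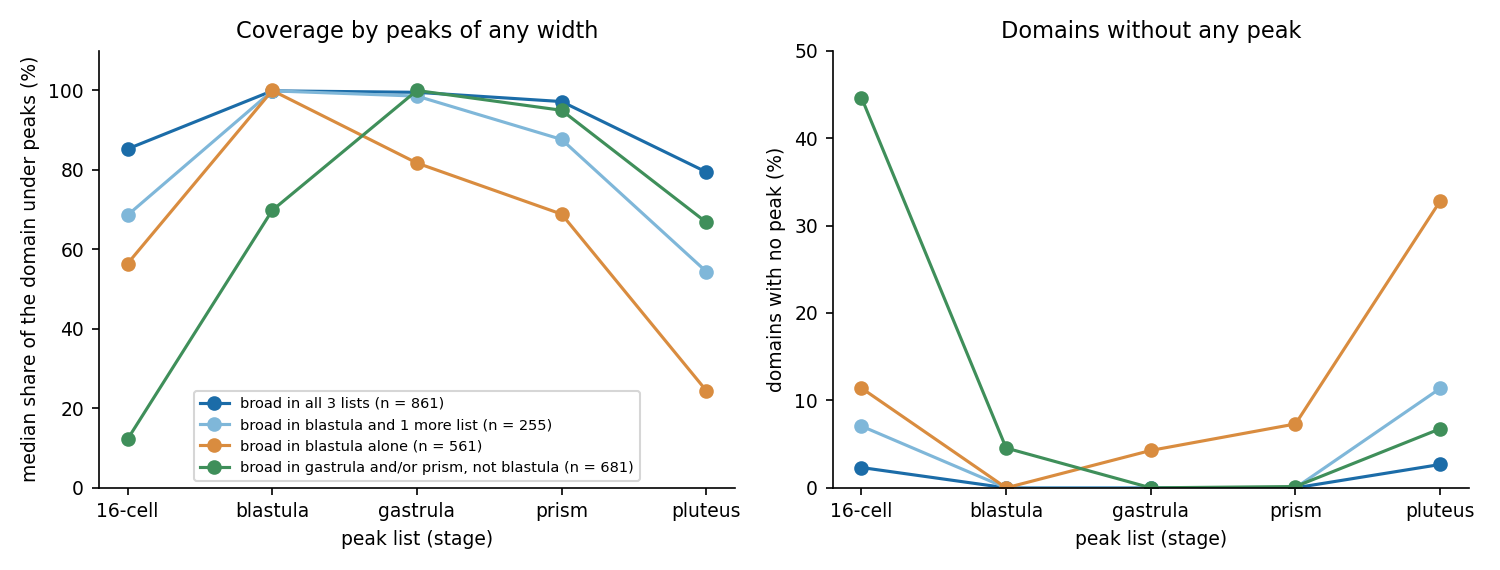
Points give, for 4 classes of domain, the median share of the domain under peaks of any width (left, %) and the share of domains without any peak (right, %) in each stage's list. Late-broad domains have the lowest coverage at the 16-cell stage, 12.3%, and early-broad domains the lowest in the pluteus, 24.5%.

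Broad peaks were also found more often than other peaks in the unused lists. The summits of 90.4% of the blastula broad peaks lay in a 16-cell peak, against 19.5% of all blastula peaks, and 83.2% against 24.6% lay in a pluteus peak. For gastrula, the shares were 76.7% against 18.2% in the 16-cell list and 92.7% against 26.0% in the pluteus list. For prism, they were 80.3% against 24.7% and 96.7% against 36.8%. Broad peaks also had more signal per base: the median of the authors' area score divided by width was 4.13 for blastula broad peaks and 1.78 for all blastula peaks, 5.76 against 2.07 in gastrula and 4.35 against 1.84 in prism. Signal and width moved together here, and the part of signal in the recovery of broad peaks was not tested.

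Gene starts lay in or near many domains, but most domains were away from them. The deposited gene table gave the start of each of 33922 gene models. A start lay inside 602 domains (25.5%) and within 1 kb of another 147, so that 749 (31.8%) held or adjoined a start. Another 393 were 1 to 5 kb from the nearest start, 324 were 5 to 10 kb, 807 (34.2%) were over 10 kb away, and 85 lay on sequences with no gene model. Late-broad domains held or adjoined a start in 34.8% of cases and early-broad domains in 30.5%.

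A wide interval reaches a start more easily than a narrow one, so summits were compared as well. In the blastula list, 18.4% of broad-peak summits (95% Clopper-Pearson interval 16.5 to 20.3) lay within 1 kb of a start, against 11.5% of all summits. In gastrula the shares were 20.4% (18.5 to 22.4) and 11.8%, and in prism 22.0% (19.8 to 24.3) and 13.6%. Peaks of 1 to 2 kb were close to the broad ones, with 16.1%, 19.8% and 21.7%, so the share rose with width below 2000 bp and the domains did not stand apart from the next width class in gastrula and prism. By summit, 25.6% of late-broad domains (22.3 to 29.0) were within 1 kb of a start, against 19.1% of early-broad domains (15.9 to 22.6) and 19.0% of those broad in all 3 (16.5 to 21.8). Peaks of one genome are not independent, and these intervals cover counting error alone.

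**Figure D3:**
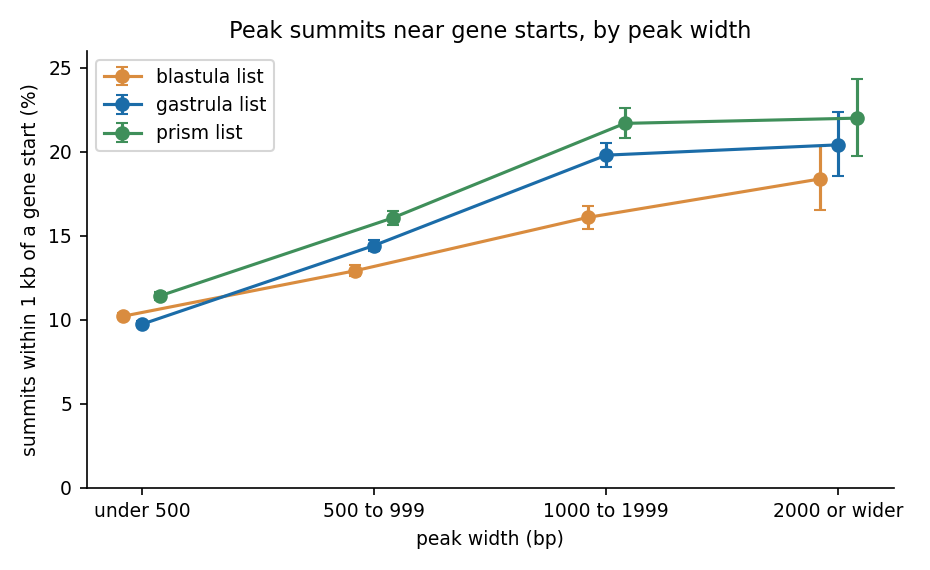
Points give the share of summits (%) that lie at most 1 kb from a gene start, by peak width in bp for 3 lists, with bars for the 95% Clopper-Pearson interval. The share goes up with width in each list, and broad peaks reach 18.4%, 20.4% and 22.0%, next to 16.1%, 19.8% and 21.7% for peaks of 1 to 2 kb.

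Broad peaks also held more exonic DNA. Exons made up 16.0% of the bases in domains, against 8.92% to 9.75% of the bases in all peaks of the 3 lists. Summits in an exon and over 1 kb from a start made up 8.20%, 7.26% and 8.10% of broad peaks in the blastula, gastrula and prism lists, against 5.15%, 4.16% and 3.68% of all peaks there. Domains lay wholly inside genes in 816 cases (34.6%), against 43.8% to 44.8% of all peaks in the 3 lists. They lay wholly outside in 865 (36.7%), against 48.7% to 49.1%. A wide interval crosses the edge of a gene more easily than a narrow one. Of the 602 domains with a start inside, 451 held 1 start and 151 held 2 or more, up to 6, and 40 held a head-to-head pair, that is, starts of divergent genes, with a median gap of 328.5 bp. Around a single start, domains reached further into the gene than away from it. The median reach was 1733 bp downstream and 875 bp upstream, and 303 of 451 (67.2%) reached further downstream. Narrower peaks leaned the same way, with 62.4% to 66.6% of peaks of 1 to 2 kb reaching further downstream in the 3 lists.

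The widest domain, Scaffold_635:179826-191530, was 11705 bp wide. It was a single peak in the blastula, gastrula and prism lists, and peaks covered 99% of it at the 16-cell stage and 95.1% in the pluteus. It contained 1 gene start, and that gene lay between 0 and 2.03 CPM (counts scaled to a common library total) in the 17 developmental libraries, with a median of 0.761. The second, Scaffold_3426:25711055-25722746, was 11692 bp wide and opened later: the 16-cell list covered 17.1% of it, the blastula list 75%, the gastrula list 99.7%, the prism list 97.2% and the pluteus list 87.8%. It contained 2 gene starts, and the gene with the start nearer the summit is described here (minus strand, bases 25719269 to 25721124). This gene was at 0, 0.639, 1.54 and 0.959 CPM in the first 4 stages and at 5.74 in early blastula. It was at 38.1 in swimming blastula and highest, at 70.8, in early gastrula. It stood at 69.7 in late gastrula, 5.69 in prism and 48.7 in the pluteus. Its last 4 libraries, early gastrula to pluteus, were all above its first 4, and the fitted log2 change between them was 6.53 (SE 0.80, adjusted p = 1.31e-06 in edgeR's quasi-likelihood test, described below).

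The other 3 of the 5 widest were open from the 16-cell stage on. Scaffold_1202:35485-46239, 10755 bp, contained a start and had 58.5% of its bases in exons. Its gene lay between 2.56 and 22.7 CPM, highest in early blastula, and its end-to-end change did not pass the test (log2 -0.35, SE 0.35, adjusted p = 0.399 in edgeR). Scaffold_2100:42956579-42966907, 10329 bp, lay 22643 bp from the nearest start and was also the widest of the domains over 10 kb from any start. The gene there (minus strand, bases 42902674 to 42933936) was between 240 and 509 CPM from the egg to blastula, between 72.1 and 193 from swimming blastula to late gastrula, 12.3 in prism and 82.8 in the pluteus. It fell by 1.93 on the log2 scale between the first and last 4 stages (SE 0.33, adjusted p = 7.21e-05 in edgeR) while the domain stayed under peaks for 94.5% to 100% of its length in the 5 lists. Scaffold_1710:35160-44913, 9754 bp, contained the start of a gene that reached 2.21 CPM at most.

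Of the other wide domains far from starts, Scaffold_218:5127676-5135737, 8062 bp, was 22402 bp from the start of its nearest gene, which reached at most 2.43 CPM. Coverage of this domain was 20.1% at the 16-cell stage and 91.5% to 98.5% in the later lists. The domain at bases 27694041 to 27701699 of the sequence named 1, 7659 bp, lay 23335 bp from the start of its nearest gene. It lay inside that gene (minus strand, bases 27664666 to 27725034). The gene was at 63.2 CPM in the egg, 186 at 2-cell, 226 in early blastula, 128 in early mesenchyme blastula, 29.5 in prism and 553 in the pluteus. Its fitted log2 change was 1.11 (SE 0.36, adjusted p = 0.0119 in edgeR), and a trend of any shape was not called (adjusted p = 0.0777 in edgeR).

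The widest of the 65 domains broad in the prism list alone, Scaffold_2100:29795088-29801172, was 6085 bp wide and stands out for how little of it was open before. It had no 16-cell peak, one peak of 166 bp in blastula and one of 245 bp in gastrula, while the prism list held it as one peak and the pluteus list covered 94.2% of it. It contained the start of its nearest gene (minus strand, bases 29794128 to 29799750), and 84.0% of its bases lay in exons of any gene model. RNA of the gene was highest well before the prism stage. It was between 2.42 and 5.46 CPM in the first 4 stages, 73.7 in early blastula, 433 in blastula, 634 in swimming blastula, 139 in early gastrula and 93.8 in late gastrula. In prism it was 16.0 and in the pluteus 35.0, and adult tissues reached 1.31 at most. The second of these domains, Scaffold_3435:17814808-17818925, 4118 bp, was held in blastula and gastrula as shorter peaks covering 81.4% and 74.6%. Its gene also peaked in swimming blastula, at 373 CPM, from at most 0.427 in the first 4 stages, and was at 78.0 in late gastrula, 3.27 in prism and 18.8 in the pluteus. For both genes the stage of the broad peak and the stage of the highest RNA differed.

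RNA of the nearest gene was then examined for all domains. The nearest gene was taken for the 2273 domains with a gene model on their sequence, which gave 2001 genes. Of these, 207 were nearest to 2 or more domains, up to 8. Counts of the 17 developmental libraries were fitted with edgeR's quasi-likelihood model as a smooth curve over stage order. A gene was called rising or falling where the fitted curve, averaged from early gastrula to pluteus (the last 4 stages), differed from its average from egg to 8-cell (the first 4), with a Benjamini-Hochberg adjusted p under 0.05 and a log2 change of at least 1. With 1 library per stage these p-values measure scatter around the curve, and in whole embryos fewer cells of a type and less RNA per cell cannot be told apart. Library totals ran from 14657193 to 36305776 counts. Prism stood apart, with a TMM factor (edgeR's scaling for RNA composition) of 0.367 against 0.812 to 1.28 in the other developmental libraries. The CPM values of single genes above and below are not TMM-scaled, and on such a scale most genes are lower in prism: the median over all genes tested was 1.5 TPM there and 7.37 TPM in late gastrula.

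A larger share of nearest genes than of all genes was called rising, and a smaller share falling. Of the 2001, 1577 passed the filter on low counts and were tested. Among them 733 (46.5%) were called rising, where 36.5% of all 22940 genes tested were, and 267 (16.9%) falling, against 19.6%. A trend of any shape was called for 1108 (70.3%), against 64.7%. The median fitted log2 change was 1.29 for the nearest genes and 0.63 for all genes tested. The filter keeps more of the nearest genes than of others. With untested genes kept in the denominator, 36.6% of the 2001 were called rising against 24.7% of all 33922 gene models, and 13.3% falling against 13.3%. Whether these shares differ beyond chance was not tested, since genes are not replicates and neighbouring domains share genes.

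The share grew with closeness to the start and with width. Where the start lay inside the domain or within 1 kb, 639 of 743 genes were tested, and 351 (54.9%) were rising and 92 (14.4%) falling. Where it was over 10 kb away, 212 of 529 (40.1%) were rising and 107 (20.2%) falling, close to the shares over all genes. Genes with a start near a peak of 1 to 2 kb, and near no domain, lay between, with 42.0% of 3235 rising and 18.1% falling. That set takes every such start, where the 639 are only the nearest gene of each domain. With every start inside or within 1 kb of a domain, 447 of 857 tested (52.2%) were rising and 106 (12.4%) falling. Among genes within 1 kb, the rising share was 51.3% of 308 for domains under 2.5 kb, 52.2% of 134 between 2.5 and 3 kb, 62.5% of 160 between 3 and 5 kb and 62.5% of 40 for wider ones. The falling share in the same order was 19.8%, 14.2%, 6.25% and 7.5%.

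**Figure D4:**
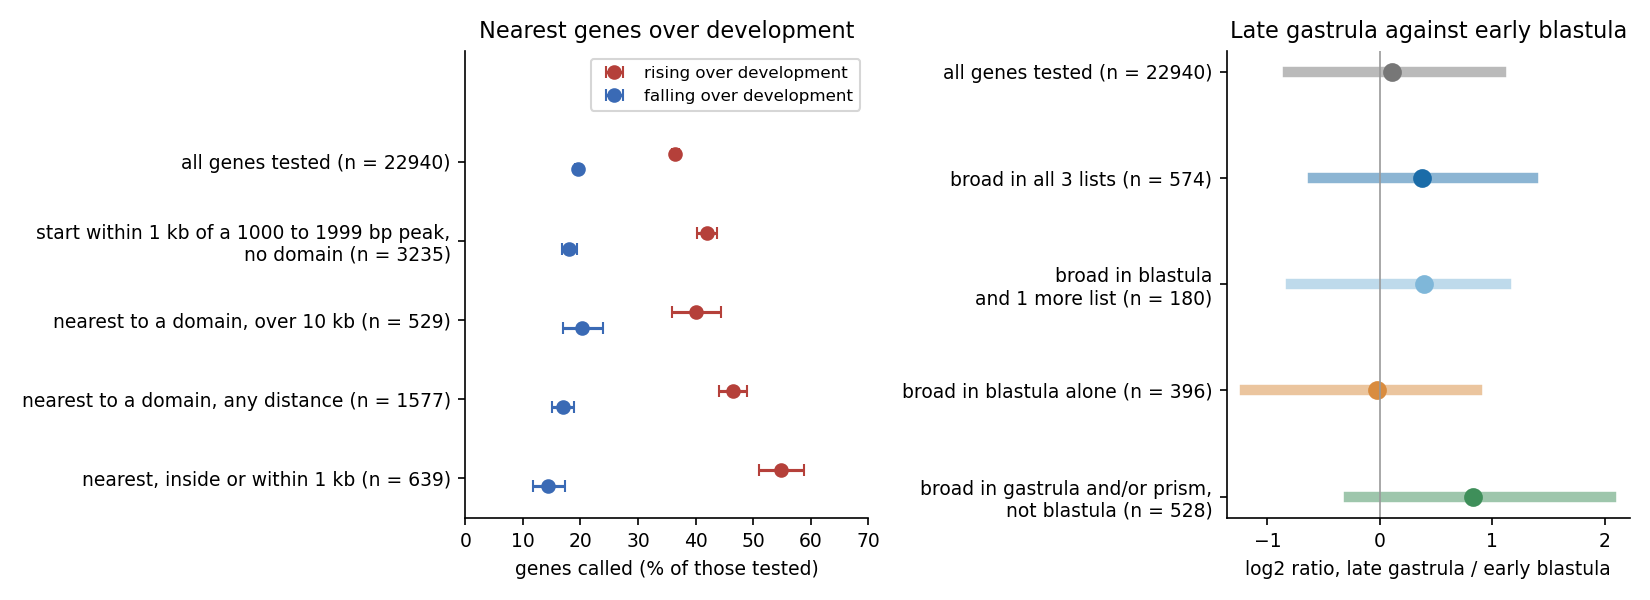
Left, points give the share of tested genes called rising or falling (%) in 5 gene sets, with 95% Clopper-Pearson intervals that cover counting error. Right, points give the median and bars the quartiles of the log2 ratio of late gastrula to early blastula RNA (TMM-scaled CPM plus 0.5) for the gene nearest to each class of domain. Genes within 1 kb have the highest rising share, 54.9%, and late-broad domains the highest median ratio, 0.83.

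Genes were also sorted by the stage of their highest TMM-scaled level. Of the 639 genes within 1 kb, 21.4% peaked from egg to 128-cell. A further 36.9% peaked from early blastula to late mesenchyme blastula, and 41.6% from early gastrula on. For all genes tested the shares were 32.1%, 28.2% and 39.7%. Swimming blastula was the highest library for 14.6% of these genes against 9.39% of all, and prism for 22.1% against 17.4%. For the 1577 nearest genes at any distance, the share peaking from early gastrula on was 40.7%, and 30.2% without the prism library, against 31.3% of all genes without it.

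Levels per transcript length were compared with all genes within each library. In TPM, counts scaled by gene length and library, the median of the 639 genes within 1 kb was 1.72 in the egg, where all genes tested had 3.41. It was 4.53 against 5.46 in early blastula, 6.73 against 4.86 in swimming blastula and 9.38 against 7.37 in late gastrula. In prism, the most frequent stage of the highest TMM-scaled level, the medians were 2.01 and 1.5, since TPM is not TMM-scaled. In the pluteus the medians were 8.04 and 8.78. In adults they were 0.824 against 2.48 in ovaries, 0.718 against 1.42 in gut, 2.37 against 4.67 in bodywall, 2.48 against 3.33 in tubefeet and 0.452 against 0.593 in Aristotle's lantern. Genes at domains were thus below the median of all genes in the egg, in early cleavage and in every adult tissue, and above it from blastula to prism. Genes with a start at peaks of 1 to 2 kb, and at no domain, had higher medians than genes at domains, at 5.65 TPM in the egg, 9.12 in swimming blastula and 11.7 in late gastrula. A median above that of all genes in the later stages was thus not particular to domains.

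The classes of domain differed in how their nearest genes changed between the RNA libraries chosen for the stages of the lists. These were early blastula, late gastrula and prism. The blastula list is the same under its early and late labels, and the gastrula ATAC-seq samples are not labelled early or late. Neither list therefore has a settled match to 1 RNA library. Single libraries were compared here, 1 per stage, and no test was run on this step. A change was counted where TMM-scaled levels, with 0.5 CPM added, differed by 4-fold with at least 5 CPM in the higher library. From early blastula to late gastrula, 124 of 528 genes nearest to late-broad domains (23.5%) were higher in late gastrula and 17 (3.22%) lower. The background over all genes tested was 9.28% higher and 6.12% lower. Early-broad domains showed the opposite lean, with 19 of 396 nearest genes (4.80%) higher and 50 (12.6%) lower. The genes of domains broad in all 3 lists were between, with 70 of 574 (12.2%) higher and 34 (5.92%) lower. The median log2 ratio was 0.83 for late-broad domains, -0.03 for early-broad, 0.37 for those broad in all 3 and 0.11 for all genes tested. Within 1 kb of a start, the late-broad median was 1.02 over 217 genes and the early-broad median 0.06 over 139.

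From late gastrula to prism, the medians at any distance lay close together. The median log2 ratio was -0.45 for late-broad, -0.40 for early-broad and -0.42 for all genes tested. Within 1 kb it was -0.11 for late-broad domains, with 46.1% of 217 genes higher in prism, and -0.40 for early-broad, with 38.8% of 139 higher. In the late-broad class 36 of 528 genes (6.82%) were 4-fold higher in prism and 57 (10.8%) lower, against 7.37% and 7.08% over all genes. In the early-broad class these were 25 of 396 (6.31%) and 19 (4.80%). The prism library, with its low TMM factor, enters each of these ratios.

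Over the whole time course, 131 of 217 tested genes within 1 kb of a late-broad domain (60.4%) were rising and 36 (16.6%) falling, and 84.8% had a trend. Over all genes tested these shares were 36.5%, 19.6% and 64.7%. For early-broad domains 68 of 139 (48.9%) were rising and 22 (15.8%) falling, and for domains broad in all 3 lists 131 of 234 (56.0%) and 24 (10.3%). Among genes nearest to domains broad in the prism list alone, at any distance, 35 of 57 (61.4%) were rising. Of genes within 1 kb, those of early-broad domains had low levels at the start, with a median of 0.409 TPM in the egg against 2.96 for late-broad domains, and 3.01 against 5.42 in early blastula. In late gastrula the medians were 3.84 and 19.5.

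Single genes at domain starts showed the range of these courses. Among genes within 1 kb that reached 20 CPM in some library and whose first 4 libraries lay wholly above or below the last 4, the largest fitted changes were those of PL03351 and PL06177 among rising genes and of PL26111 and PL06447 among falling ones. The files give no names or functions for these models. PL03351 (Scaffold_1721:23645042-23650274, plus strand) starts in an early-broad domain of 2372 bp. It was at 0, 0, 0 and 0.0872 CPM from egg to 8-cell, at 1.46 in early blastula and 2.93 in late mesenchyme blastula, and at 16.6, 77.3, 81.3 and 88.1 from early gastrula to pluteus. It lay between 0.423 and 2.93 CPM from early blastula to late mesenchyme blastula, while its domain was broad in the blastula list. Adult levels ran from 2.97 in ovaries to 104 in Aristotle's lantern. All deposited counts of the developmental libraries are even. For a fold change they were divided by 2, and 3 of the divided counts were put in each library at 0. On that floor the last 4 libraries, pooled, were 283-fold higher than the first 4, pooled. This is a single ratio and sets no lower bound for each library. The edgeR fit, on the deposited counts without division or floor, gave an adjusted p = 4.85e-08.

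PL06177 (Scaffold_2100:52357898-52358874, plus strand) starts in a late-broad domain of 4677 bp. It was at 0 in every library through the 64-cell stage, at 0.547 CPM in early blastula and 5.48 in swimming blastula, and at 22.9, 10.7, 33.0 and 12.1 in the last 4. On the same floor the last 4 libraries, pooled, were 65.2-fold higher than the first 4, pooled. The edgeR fit without the floor gave an adjusted p = 1.69e-06. Adult tissues ran from 0.716 to 2.63 CPM, below each of the last 4 developmental libraries.

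PL26111 (Scaffold_649:25129187-25151561, plus strand) starts in an early-broad domain of 2139 bp. It was at 15.8, 31.0, 28.4 and 37.2 CPM in the first 4 stages, highest in 128-cell at 43.9, still at 22.0 in early blastula, and at 0.737, 1.55, 0 and 2.09 in the last 4 (fitted log2 change -4.69, SE 0.61, adjusted p = 2.60e-06 in edgeR). PL06447 (Scaffold_2100:13776910-13797240, plus strand) starts in an early-broad domain of 2068 bp. It was at 211, 119, 95 and 94.8 CPM in the first 4 stages, at 228 in early blastula and highest in blastula at 341. In the last 4 it was at 5.07, 7.38, 0.843 and 5.93 (log2 change -4.56, SE 0.56, adjusted p = 1.40e-06 in edgeR). Since the lists labelled early and late blastula are identical, the list that holds these domains as broad cannot be set against a single blastula RNA library. Between early and swimming blastula PL26111 went from 22.0 to 3.82 CPM and PL06447 from 228 to 91.5, and in early mesenchyme blastula they were at 0.355 and 5.06.

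**Figure D5:**
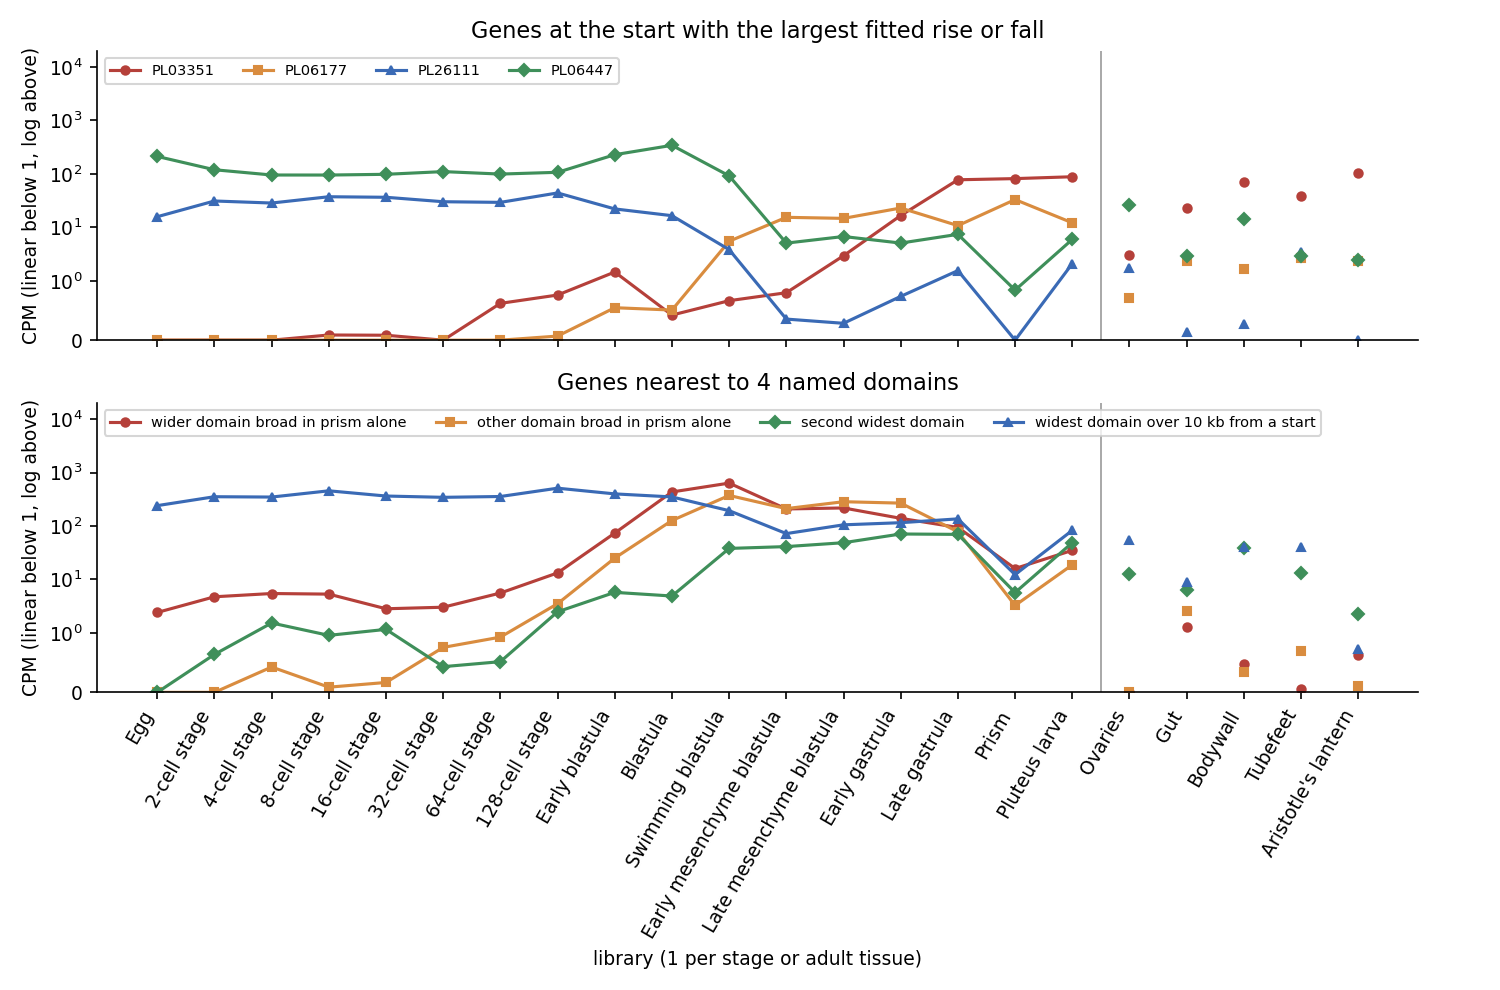
CPM by library, 17 developmental stages left of the line and 5 adult tissues right of it, on an axis linear below 1 and logarithmic above, with 1 library per point. Top, the 2 rising and 2 falling genes named by the rule for genes within 1 kb of a domain, and bottom, the genes nearest to 4 domains, where those of both domains broad in prism alone peak in swimming blastula at 634 and 373 CPM.

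Some genes lay among several domains, and the 3 with the most were picked out after their values were seen. A model on Scaffold_3747 (bases 137590 to 138099) was nearest to 8 domains spread over 111 kb, none of them inside it, and reached at most 0.166 CPM in development. The model on the minus strand of Scaffold_2100 at bases 17538186 to 17575304 was nearest to 7 domains over 96.6 kb, 4 of them inside it, of which 1 was broad in all 3 lists and the others in gastrula or prism without blastula. Its level ran from 0.636 CPM, with a median of 32.4, to 545 in prism, and it rose by 7.5 on the log2 scale (SE 0.79, adjusted p = 2.41e-07 in edgeR). The model on the plus strand of Scaffold_3429 at bases 25803087 to 25820338 was nearest to 7 domains over 42.0 kb, 3 of them inside it. Its level ran from 5.98 CPM, with a median of 359, to 1009 in early mesenchyme blastula, with a log2 change of 6.11 (SE 0.65, adjusted p = 2.75e-07 in edgeR). In all, 509 domains (21.6%) lay within 10 kb of another.

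The share of nearest genes restricted to an adult tissue was close to the background. A gene counted as restricted where 1 tissue had at least 5 CPM and 8 times the next tissue. Of the 1021 nearest genes with 5 CPM in any adult tissue, 70 (6.86%) were restricted, against 7.21% of 16502 genes. By tissue these were 31 in tubefeet (3.04% against 3.01% of all), 19 in ovaries (1.86% against 1.78%), 13 in Aristotle's lantern (1.27% against 1.65%), 6 in gut (0.588% against 0.576%) and 1 in bodywall (0.0979% against 0.188%). Without the bodywall library, the shares were 11.5% and 12.9%. With 1 library per tissue there is no test of these shares.

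The domains were spread over the assembly. The 19 sequences longer than 10 Mb held 1973 of them, at 1.77 to 3.25 per Mb. A further 196 (8.31%) lay on sequences that end before 100 kb, which held 5.48% to 5.75% of all peaks, and 23 took up over 50% of their sequence. The strongest domains per base were the same 3 in all 5 lists. Scaffold_2500:1-3532 spans its whole sequence, scored 12.0 to 34.2 times the median of its list, and holds 3 gene models with 0 counts in every library. Scaffold_2421:1726-4581 scored 9.88 to 28.3 times the median, and its 2 gene models took 4.68% of all counts at the 128-cell stage, 2.52% at the median and 0.144% in the pluteus. Scaffold_3428:24009098-24014567, 5470 bp, scored 6.95 to 26.4 times the median. Its 3 models took 0.0974% of counts in early blastula, the highest stage, and 0.00104% in the egg.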

How the data were processed

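For each peak the authors deposited coordinates, a score that is its area, and a p-value as -log10. Bowtie2 2.4.1 and Genrich are named in the submitters' processing notes, and the lists were taken as pooled per stage. The area score was used to rank peaks and, divided by width, to describe signal per base within a list. RNA counts were deposited by the authors per gene model. STAR 2.5.2b and featureCounts 1.6.1 are named in the submitters' processing notes, and per the file header strand option 1 was set. Which strand the kit's reads follow was not settled, so a model's counts may belong to the other strand. Every count was even except in bodywall. Coordinates are 1-based, on a build not given in the sources used here. Names, sequences and gene lists by function were not used here, and CUT&Tag samples were not analysed here.

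The sequence named 1 in the peak lists was joined to Scaffold_174 of the gene table, a choice made after seeing the data: each name is missing from the other file, the last bases lie at 80426019 and 80432753, and 21.7% of pluteus summits on it lay near a start when joined against 6.48% with the coordinates reversed (17.0% to 26.7% on the other long sequences). It holds 242 domains.

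Domains were merged where broad peaks overlapped by at least 1 bp. Counts were fitted in edgeR 4.0.16 (R 4.3.3) with TMM scaling, its filterByExpr, and stage order as a natural spline (4 degrees of freedom), and the script was tested on simulated data. No stage has a replicate, so p-values measure only the scatter of the 17 libraries around the fitted curve. CPM is the count scaled to a library total of 1000000, and TPM uses the deposited gene length. Genes named were the 2 rising and 2 falling with the largest fitted change within 1 kb, a level of 20 CPM or more in some library and separate first and last 4 libraries. Domains named were the 5 widest, the 3 widest over 10 kb from a start and the 2 widest of prism alone. Alternatives included DESeq2 1.42.0. The members, classes and comparisons were chosen with earlier results of these data known.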

Additional observations from a re-analysis of the deposited data

How the results depend on the processing

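No paired analysis was possible because each stage and tissue has 1 RNA library and the peak lists pool samples. The number of domains was 5834 at a width of 1500 bp, 612 at 3000 bp and 1296 in the prism list alone. Peaks above the median score of each list held all 2358 domains, which shows nothing of stability, since the score is an area and grows with the width that chose the domains. The share holding or adjoining a gene start, 31.8%, became 27.1% at 1500 bp, 38.1% at 3000 bp, 48.4% within 5 kb, 25.5% with the start inside, and 28.4% with gene models reaching 1 CPM in 1 library.

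For rising genes, 46.5% of the nearest, the share was 39.8% with library size only, 49.1% with DESeq2, 39.4% with no low-count filter, 54.9% within 1 kb, 42.9% at 1500 bp and 53.0% at 3000 bp, and 33.6% to 46.4% without single libraries (lowest without the egg). Requiring 5 CPM in 3 libraries left 447 rising genes of 967, against 733. For falling genes, 16.9%, it was 18.9% with library size only, 21.6% with at least 5 CPM in 3 libraries, 20.9% with counts divided by 2, 14.4% within 1 kb, 13.9% at 3000 bp, and 15.9% to 19.2% without single libraries. For a trend, 70.3%, it was 72.6% with DESeq2 size factors, 63.0% with library size only, 76.2% with DESeq2, 59.7% with no filter, 83.5% with at least 5 CPM in 3 libraries, 76.4% with counts divided by 2, 74.6% within 1 kb, and 65.5% to 75.5% without single libraries. Under the 24 alternative fits the nearest genes' rising share stayed 8.21 to 11.0 percentage points above that of all genes, and their falling share 1.28 to 4.28 points below. Library size only moved the median log2 change of all genes from 0.63 to 0.33.

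For late-broad domains, 19.8% of nearest genes were 4-fold higher in late gastrula at 1500 bp, against 23.5%. For early-broad domains 7.79% were higher at 1500 bp, against 4.80%, and 7.48% were lower at 3000 bp (8 of 107), against 12.6%. Adult restriction was 4.11% with a prior of 2 CPM, 3.50% with no filter and 11.5% without bodywall. The share of nearest genes at 1 TPM in late gastrula was 85.0%, and 73.1% with no filter. Peaking from early gastrula on fell to 30.2% without the prism library. Leaving out the sequence named 1, or sequences ending before 100 kb, were added after seeing the data and moved the count of domains, the share near starts, the shares rising, falling or with a trend, the steps between list stages and adult restriction by less than their main intervals or 1.5 times. They were not run for levels and the stage of the highest level. The cause of these differences was not tested. Zero counts and single libraries limit what low genes can show.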
